A study of Bos taurus with 9 samples.

Results

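The coagulation and fibrinolysis genes of the cow liver were examined as a set of 33 genes, chosen by function and found by symbol in the table of read counts. All 33 were present among the 28786 genes of the table. Liver was biopsied from 9 lactating Holstein cows, drawn at random from a larger trial, in 3 groups of 3 cows, with 1 RNA library per cow. Thermoneutral (TN) cows were the untreated controls. Heat-stressed (HS) cows were kept above the thermoneutral temperature by day and by night, and hotter by day. Pair-fed (PF) cows stayed in thermoneutrality with their feed held to the amount that HS cows ate. HS vs. TN therefore covers heat together with reduced intake, PF vs. TN covers reduced intake alone, and HS vs. PF covers heat at matched intake. All cows first went through an acclimation period in thermoneutrality, and the groups differed in mean days in milk. A biopsy is a bulk sample of liver, so fewer cells of a type and less RNA per cell cannot be told apart.

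Coagulation is a cascade of plasma proteases in which each enzyme activates the next, from tissue factor and factor VII through factor X to thrombin, which cuts fibrinogen into the fibrin of a clot. Serpins and the protein C system hold the cascade in check, and plasmin dissolves fibrin in fibrinolysis. Hepatocytes make most of these proteins, fibrinogen being also a classical acute phase protein, while endothelial and other nonparenchymal cells carry tissue factor pathway inhibitor, thrombomodulin, the protein C receptor and the plasminogen activators.

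The libraries held 16874444 to 22557047 counts, of which the 33 genes took 1.91% (TN replicate 1, 95% Wilson interval 1.90 to 1.92%) to 7.60% (HS replicate 2, 7.59 to 7.61%), intervals that cover counting error only. Levels below are TMM-normalized CPM (read counts scaled to a common library size), which are not per length and are compared between cows, not between genes. The set comprised 25 genes above 30 CPM in every cow and 8 genes below it (*F3*, *F8*, *F13A1*, *TFPI*, *THBD*, *PROCR*, *PLAT* and *PLAU*), a level set after the values were seen. TN replicate 1 stood apart. It was the lowest of the 9 cows in 19 of 33 members (57.6%), against 27.9% of the 15073 genes kept for all 9 cows. All 19 were among the 25 higher genes, and it was lowest in 0 of the 8 low genes. The summed level of 6 hepatocyte markers (*ALB*, *TF*, *TTR*, *APOA1*, *APOA2* and *AHSG*) was 14273 CPM in this cow and 51566 to 121222 CPM in the other 8. The 13 mitochondrial protein-coding genes took 22.2% of its counts, 13.6% and 18.3% in the other TN cows, 6.90% to 7.79% in PF and 3.84% to 5.68% in HS cows. HS replicate 2 was the highest cow in 11 members and had 51268 CPM over 5 acute phase genes (*HP*, *SAA3*, *LBP*, *CRP* and *ORM1*), against 1646 to 9754 CPM in the other cows. Differences of members from TN cows are given again without TN replicate 1 where it moved them by over 1.5 times, and those of fibrinogen without HS replicate 2, and the part of these cows in the group differences was not tested further.

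**Figure D1:**
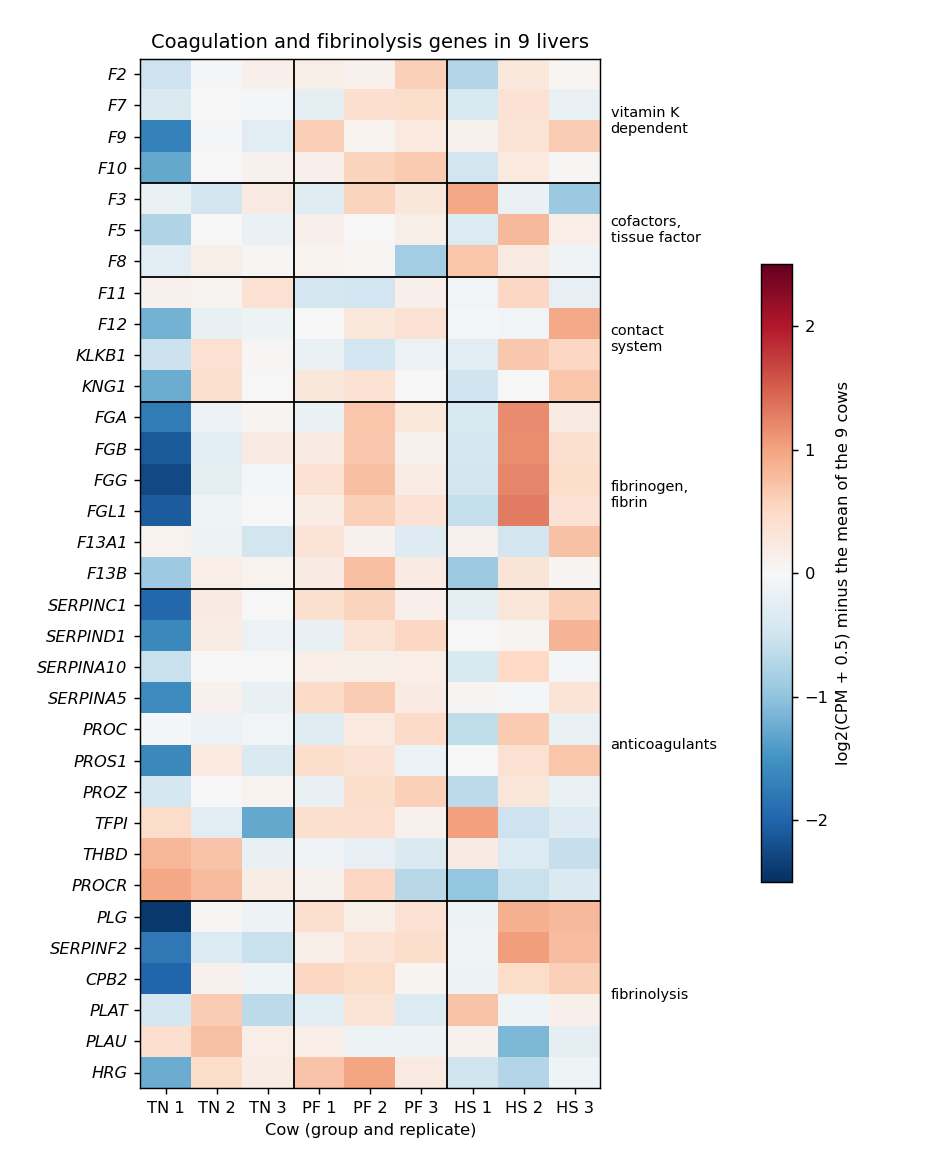
Level of each of the 33 genes (rows, by role) in each cow (columns), as log2(CPM + 0.5) minus the mean of the 9 cows; red is above and blue below that mean. TN replicate 1 is the lowest cow in 19 genes, and HS replicate 2 is the highest in 11.

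An unadjusted p under 0.05 by edgeR was reached by 4 genes across the comparisons. *SERPINF2*, the plasmin inhibitor, averaged 476 ± 212 CPM in TN cows (mean ± SD, n = 3), with 1013 ± 105 in PF and 1277 ± 471 in HS cows. *HRG*, which binds plasminogen, averaged 512 ± 259 CPM in TN cows, with 837 ± 215 in PF and 390.1 ± 87.0 in HS cows. *PROCR*, the protein C receptor, averaged 4.82 ± 1.38 CPM in TN and 1.68 ± 0.456 CPM in HS cows, and *PLAU*, urokinase, also had its lowest mean in HS cows. The fibrinogen chains and most hepatocyte factors had higher means in PF and HS than in TN cows, with wide spread within groups.

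No coagulation or fibrinolysis gene was a DEG (FDR under 0.1 and fold change over 1.5) by edgeR in any comparison, and the 3 comparisons share cows pair by pair. In HS vs. TN, 0 of 32 tested members were DEGs by edgeR, against 0.0892% of all genes. DESeq2 called 1 member, *SERPINF2*, higher in HS cows, against 1.75% of all genes. At an unadjusted p under 0.05, edgeR passed 3 members, *SERPINF2* higher and *PROCR* and *PLAU* lower in HS, which is 9.38% beside 9.36% of all genes. For HS vs. PF, edgeR made 0 DEGs among 33 members (0.0276% of all genes) and DESeq2 made 1, *HRG*, lower in HS cows (0.771% of all genes). *HRG* was also the 1 member under the unadjusted threshold by edgeR, with 5.32% of all genes. PF vs. TN had 0 member DEGs by edgeR (0% of all genes) and by DESeq2 (0.555%), and 1 member at an unadjusted p under 0.05 by edgeR, *SERPINF2*, higher in PF cows (6.88% of all genes). In these edgeR fits the members' shares at the unadjusted threshold were close to or below those of all genes, but not so by DESeq2. DESeq2 passed 11 of 33 members in HS vs. TN (9.82% of all genes) and 7 of 33 in PF vs. TN (7.76%), above the share of all genes, and 2 of 33 in HS vs. PF (5.70%), close to it.

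Most members had a higher mean in both low-intake groups than in TN cows, mostly without passing the unadjusted threshold by edgeR one by one. The log2 fold change was above 0 in 26 of 32 members in HS vs. TN, with a median of 0.33 against -0.0082 over all genes tested. In PF vs. TN, which uses the same TN cows, it was above 0 in 26 of 33 members, with a median of 0.54 against -0.014. Between HS and PF cows, 17 of 33 were above 0 and the median was 0.0073, against 0.0069 over all genes. A fold change over 1.5 was reached upward by 11 members in HS vs. TN (9.89% of all genes) and by 16 in PF vs. TN (9.33%). Without TN replicate 1 these counts were 4 of 32 and 3 of 33, and the medians 0.17 and 0.29, against 0.012 and 0.0061 over all genes. The share of all genes over 1.5-fold was not counted without that cow, so these 2 counts have only the shares with all cows beside them. For hepatocyte markers 6 of 6 log2 fold changes were above 0 in both, with medians of 0.61 and 0.78, and the median in HS vs. PF was -0.016. None of the 6 passed the unadjusted threshold by edgeR in any comparison, and their part in the members' means was not tested.

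Groups of cows did not overlap for 5 members in HS vs. TN (*SERPINF2*, *F12* and *F9* higher, *PROCR* and *PLAU* lower), where 16.1% of all genes did not. They were apart for 1 member in HS vs. PF (*HRG*, 10.6% of all genes). In PF vs. TN they were apart for 10 members, all higher in PF cows (*F9*, *F10*, *F12*, *F13B*, *FGG*, *FGL1*, *SERPINA5*, *SERPINA10*, *PLG* and *SERPINF2*), where 6.92% of all genes lay apart in that direction. Leaving out TN replicate 1, which frees every gene from 1 value, gave 6 members in HS vs. TN (23.2% of all genes) with *HRG* (lower) added. In PF vs. TN it gave 11 higher (9.57% of all genes), *TFPI* added, and 1 lower, *KLKB1* (10.2%).

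**Figure D2:**
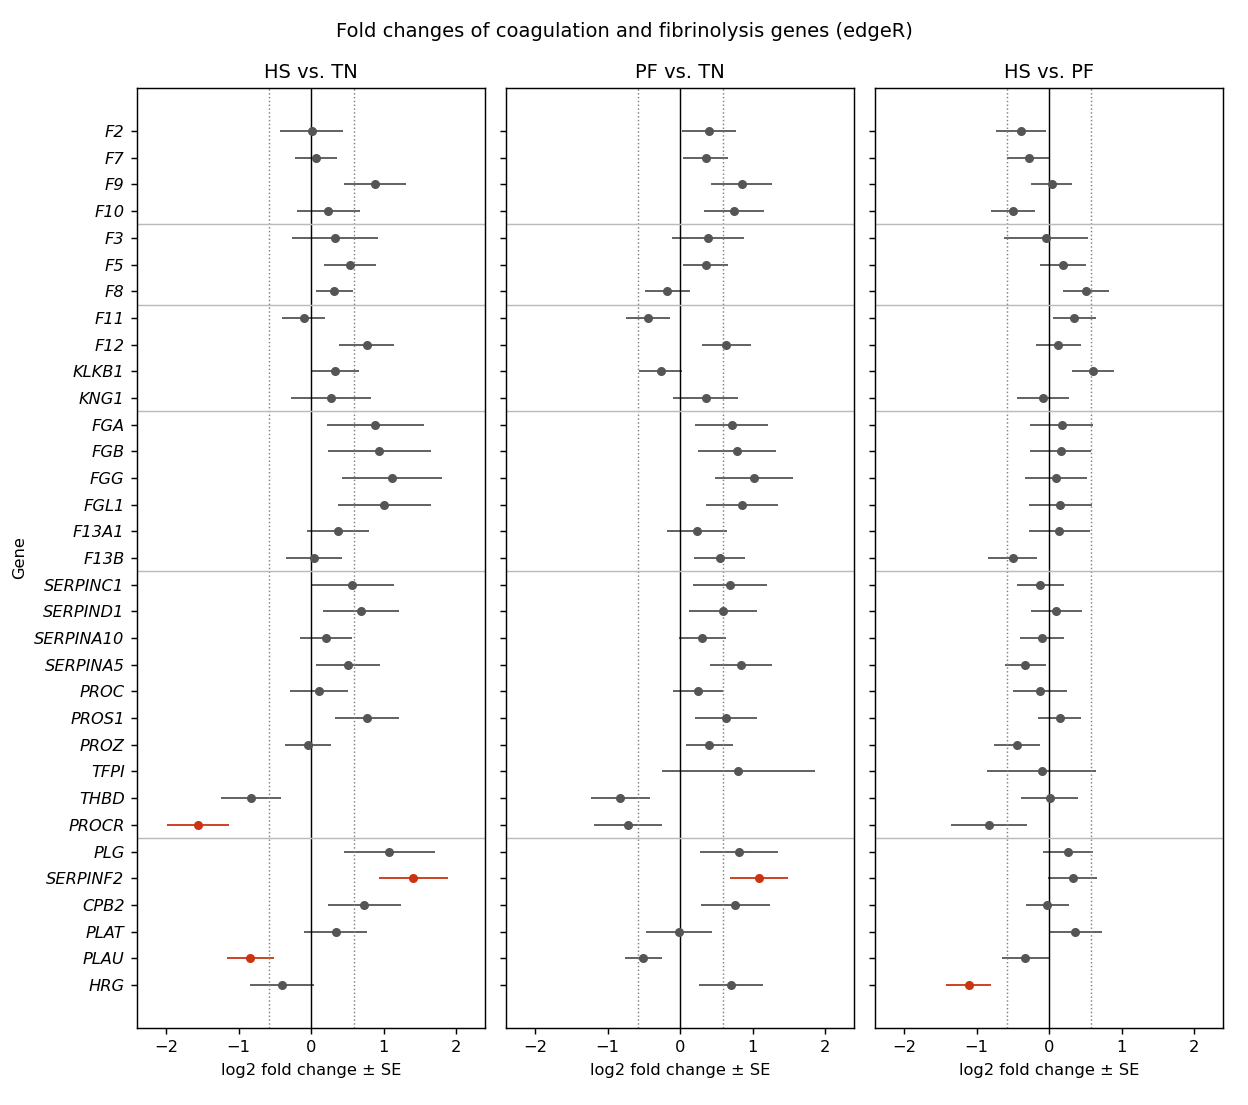
log2 fold change (x axis) with its standard error (bars) from edgeR for each gene (y axis, by role) in the 3 comparisons; red marks an unadjusted p under 0.05 and dotted lines a 1.5-fold change. The red genes are SERPINF2, PROCR and PLAU in HS vs. TN, SERPINF2 in PF vs. TN, and HRG in HS vs. PF; TFPI was not tested in HS vs. TN.

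*SERPINF2*, which encodes alpha-2-antiplasmin, the main plasma inhibitor of plasmin, had the lowest levels in TN cows. Its level was 236, 639 and 552 CPM in TN cows 1, 2 and 3. PF cows had 900.4, 1032 and 1107 CPM and HS cows 759, 1679 and 1393 CPM. Every PF and HS cow lay above every TN cow, and HS cows spanned the PF range. HS vs. TN gave a log2 fold change of 1.41 ± 0.48 (SE), with an adjusted p of 0.456 by edgeR and 0.0218 by DESeq2, and the adjusted p ran from 0.0218 to 0.833 over all edgeR and DESeq2 alternatives. PF vs. TN gave 1.09 ± 0.41 (edgeR adjusted p = 0.708, range 0.170 to 1.000 with DESeq2 the lowest). Without TN replicate 1 the 2 log2 fold changes were 1.10 and 0.77. The difference between HS and PF cows was 0.33 ± 0.34 on the log2 scale, less than its standard error. In HS vs. TN, leaving out HS replicate 2 brought the unadjusted edgeR p to 0.0590.

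Other hepatocyte genes of fibrinolysis had smaller or more scattered differences. *PLG*, the plasmin precursor, had 374, 2022 and 1818 CPM in TN, 2633, 2208 and 2570.3 CPM in PF and 1814, 3658 and 3496 CPM in HS cows. The log2 fold change was 1.08 ± 0.62 in HS vs. TN and 0.81 ± 0.53 in PF vs. TN, and TN replicate 1 was far below the other cows. Without it they were 0.63 and 0.37. *CPB2*, whose product trims fibrin and slows its lysis, gave 0.73 ± 0.50 and 0.76 ± 0.47, and without that cow 0.33 and 0.36. The ratio of *SERPINF2* to *PLG* CPM was 0.631, 0.316 and 0.303 in TN, 0.342, 0.468 and 0.431 in PF and 0.418, 0.459 and 0.399 in HS cows. TN replicate 1 had the highest ratio of the 9 cows, and the other TN cows the lowest, so the ratio did not separate the groups.

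*HRG*, histidine-rich glycoprotein, a hepatocyte protein that binds plasminogen and heparin, separated HS from PF cows. HS cows had 369, 316 and 486 CPM. PF cows had 854, 1043 and 614 CPM and TN cows 222, 717 and 599 CPM. All 3 HS cows lay below all 3 PF cows and below TN replicates 2 and 3, while TN replicate 1 was the lowest cow of all. HS vs. PF gave a log2 fold change of -1.11 ± 0.31, with an adjusted p of 0.564 by edgeR and 0.0191 by DESeq2 (range 0.0191 to 1.000 over the alternatives of both tools). Leaving out 1 cow at a time kept the unadjusted edgeR p under 0.05 in 6 of 6 fits, with log2 fold changes of -1.30 to -0.92. The gene next to it in the annotation, *KNG1*, the kininogen precursor, had 3936, 4205 and 3198 CPM in PF and 2291, 3276 and 5215 CPM in HS cows, a log2 fold change of -0.082 ± 0.36 in the same comparison. HS vs. TN was -0.41 ± 0.44 for *HRG*, and -0.76 without TN replicate 1. PF vs. TN was 0.71 ± 0.44, and 0.36 without that cow. By edgeR, 6 of 7 tested Kupffer cell and macrophage markers were higher in HS than PF cows at an unadjusted p under 0.05. That threshold was passed by 5.32% of all genes. The markers summed to 1154 to 2702 CPM in TN, 973 to 1643 CPM in PF and 1723 to 3039 CPM in HS cows. Their part in the *HRG* difference was not tested. Hepatocyte marker sums overlapped (77389.9 to 108322 CPM in PF, 51566 to 121222 CPM in HS).

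**Figure D3:**
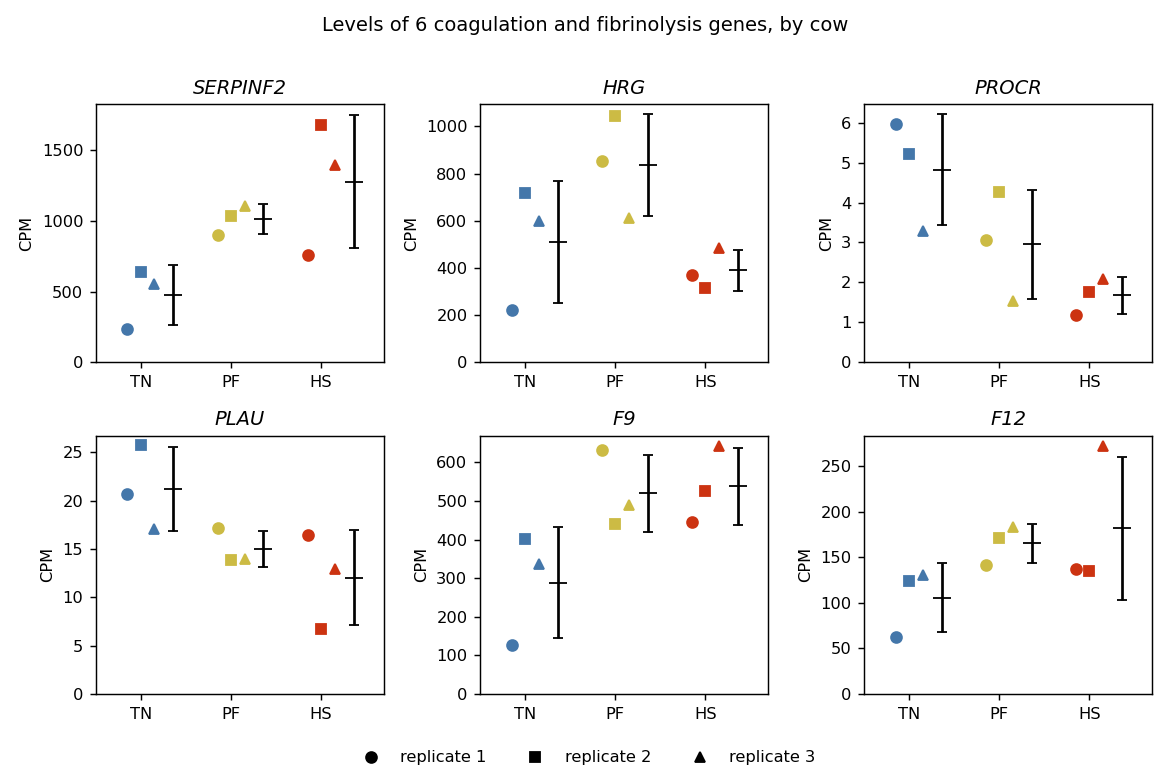
Level (CPM, y axis) of SERPINF2, HRG, PROCR, PLAU, F9 and F12 in each cow by group; symbols mark replicates, and the black bar gives the group mean ± SD (n = 3). SERPINF2, F9 and F12 lie higher in every PF and HS cow than in every TN cow, and HRG lies lower in every HS than in every PF cow.

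Both plasminogen activator genes were under 30 CPM in every liver. *PLAU*, urokinase, had 20.7, 25.8 and 17.1 CPM in TN, 17.2, 13.9 and 13.9 CPM in PF and 16.4, 6.74 and 12.9 CPM in HS cows. Every HS cow lay below every TN cow, the highest HS cow being close under the lowest TN cow. HS vs. TN gave -0.84 ± 0.33 on the log2 scale (edgeR adjusted p = 0.487, range 0.428 to 0.852 over the edgeR and DESeq2 alternatives), and the unadjusted edgeR p stayed under 0.05 in 3 of the 6 fits that left out 1 cow. PF vs. TN was -0.51 ± 0.26 and HS vs. PF -0.33 ± 0.32. *PLAT*, tissue plasminogen activator, ranged from 2.86 to 8.17 CPM and had log2 fold changes of 0.34, -0.018 and 0.36 in HS vs. TN, PF vs. TN and HS vs. PF, the first 2 being 0.18 and -0.18 without TN replicate 1.

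*PROCR*, the endothelial receptor that presents protein C for activation, had its highest mean in TN cows. It was at 5.97, 5.20 and 3.28 CPM in TN, 3.05, 4.26 and 1.54 CPM in PF and 1.19, 1.76 and 2.09 CPM in HS cows, from 30 to 136 reads a library. HS cows all lay below TN cows, and PF cows overlapped both. HS vs. TN gave -1.57 ± 0.43 (edgeR adjusted p = 0.381, DESeq2 adjusted p = 0.102, range 0.102 to 0.676), with the unadjusted edgeR p under 0.05 in 6 of 6 fits that left out 1 cow and log2 fold changes of -1.78 to -1.35. PF vs. TN was -0.72 ± 0.47 and HS vs. PF -0.83 ± 0.52. *THBD*, thrombomodulin, which turns thrombin toward protein C, had 7.38, 6.81 and 3.40 CPM in TN, 3.70, 3.36 and 2.97 CPM in PF and 4.60, 2.99 and 2.49 CPM in HS cows. Its log2 fold change was -0.83 ± 0.41 in HS vs. TN and -0.82 ± 0.40 in PF vs. TN, without passing the unadjusted threshold. Endothelial markers (*PECAM1*, *CDH5*, *KDR*, *TEK*, *STAB2*, *LYVE1* and *ERG*) summed to 338 to 496 CPM in TN, 406 to 536 CPM in PF and 349 to 595 CPM in HS cows, with a median log2 fold change of 0.023 in HS vs. TN and 0 of 7 passing the unadjusted threshold.

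The 3 fibrinogen genes varied widely between cows of 1 group. No chain passed the unadjusted threshold by edgeR in any comparison with all cows kept. The DESeq2 adjusted p in HS vs. TN was 0.478, 0.487 and 0.341 for *FGA*, *FGB* and *FGG*. *FGA*, the alpha chain, had 2630.3, 8024 and 9279.6 CPM in TN, 7895, 14252 and 10611 CPM in PF and 6749, 20024 and 10388 CPM in HS cows. *FGB*, the beta chain, had 2280.5, 8080.4 and 11445 CPM, 11427, 15595 and 10575 CPM and 7291, 21979 and 12927 CPM in the same order. *FGG*, the gamma chain, had 1277, 5143 and 5945 CPM, 7843, 10268 and 6967 CPM and 4449.7, 14282 and 8303 CPM. In all 3 chains TN replicate 1 was the lowest cow and HS replicate 2 the highest, and HS replicate 1 was the lowest outside TN. Across the 9 cows the ratio of *FGG* to *FGB* CPM ran from 0.519 to 0.686 and that of *FGA* to *FGB* from 0.691 to 1.15, narrower ranges than that of each chain's own level. HS vs. TN gave log2 fold changes of 0.88 ± 0.67, 0.94 ± 0.71 and 1.12 ± 0.69 for *FGA*, *FGB* and *FGG* (edgeR adjusted p from 0.604 to 0.663). PF vs. TN gave 0.71 ± 0.51, 0.78 ± 0.54 and 1.02 ± 0.53, *FGG* being the 1 chain whose PF and TN cows did not overlap. HS vs. PF gave 0.18 ± 0.44, 0.16 ± 0.42 and 0.10 ± 0.43, and without HS replicate 2 -0.36, -0.32 and -0.40, with the sign turned. Without TN replicate 1, HS vs. TN was 0.51, 0.52 and 0.70, and PF vs. TN 0.34, 0.37 and 0.60. Without HS replicate 2, HS vs. TN was 0.36, 0.47 and 0.62, the lowest values with any 1 cow left out. These are smaller differences in the same direction. The acute phase genes *HP* and *ORM1* were likewise highest in HS replicate 2, at 19424 and 29246 CPM, against at most 1732 and 7816 CPM in any other cow. In HS vs. TN, 2 of the 5 acute phase genes, *HP* and *SAA3*, were higher at an unadjusted p under 0.05 by edgeR. At that threshold 3 were higher in HS vs. PF (with *ORM1*) and 2 in PF vs. TN (*LBP* and *SAA3*). The shares of all genes passing it were 9.36%, 5.32% and 6.88% in these comparisons. The part of the acute phase genes in the fibrinogen levels was not tested.

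*FGL1*, a fibrinogen-like protein of hepatocytes, had its lowest and highest levels in the same cows as the chains, with 382, 1489 and 1622 CPM in TN, 1838, 2443 and 2062 CPM in PF and 1068, 3964 and 2062 CPM in HS cows. Its log2 fold changes were 1.01 ± 0.64 in HS vs. TN and 0.86 ± 0.50 in PF vs. TN, and without TN replicate 1 0.60 and 0.45. Factor XIII cross-links fibrin. Its B subunit gene, *F13B*, ranged from 85.8 to 273 CPM with a log2 fold change of 0.54 ± 0.35 in PF vs. TN and 0.037 ± 0.39 in HS vs. TN, or 0.29 and -0.22 without TN replicate 1. *F13A1*, the A subunit made mainly by macrophages and platelets, ranged from 2.57 to 6.47 CPM and had log2 fold changes of 0.37, 0.23 and 0.14 in HS vs. TN, PF vs. TN and HS vs. PF, the first 2 being 0.55 and 0.41 without that cow.

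**Figure D4:**
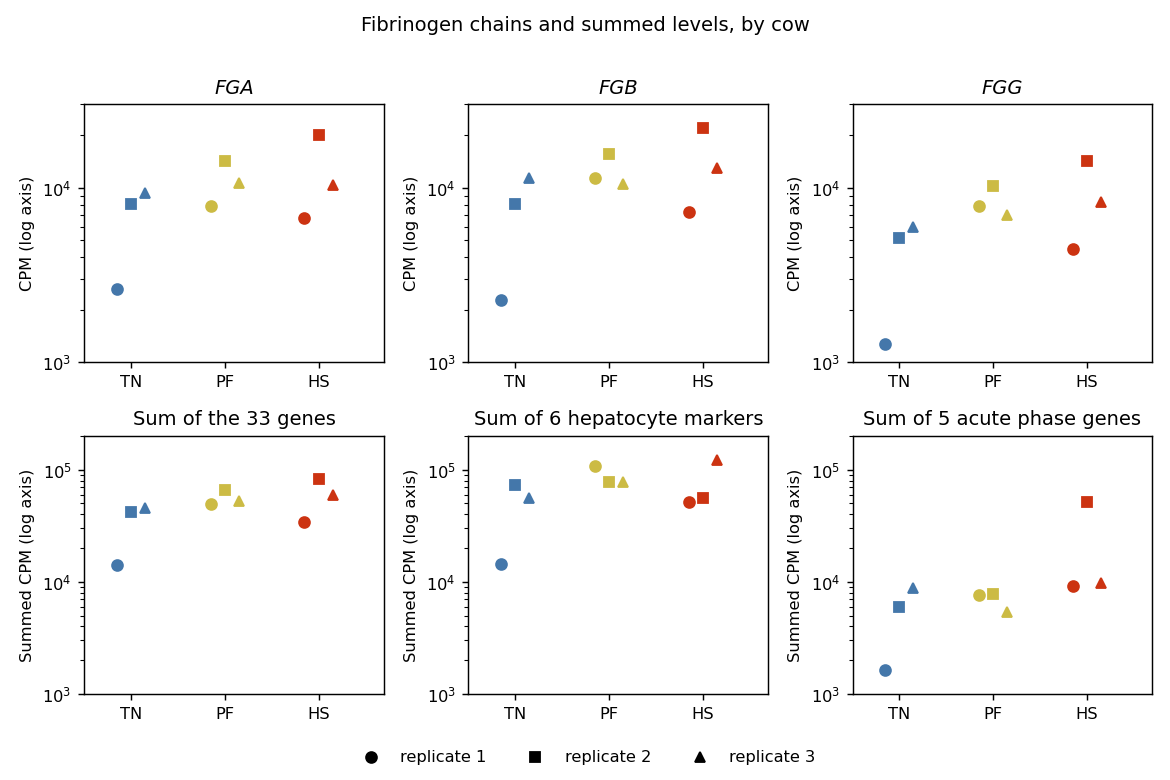
Levels of FGA, FGB and FGG (top) and summed levels of the 33 genes, 6 hepatocyte markers and 5 acute phase genes (bottom) in each cow by group, in CPM on log axes; symbols mark replicates. TN replicate 1 is the lowest cow in all 6 panels, and HS replicate 2 is the highest in each but the hepatocyte panel.

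Among the vitamin K-dependent procoagulants, which need carboxylated glutamates to bind membranes, *F9* was the 1 of 4 whose levels were lower in every TN cow than in every PF and HS cow. *F9* (factor IX) had 127, 400.3 and 337 CPM in TN, 632, 439 and 491 CPM in PF and 445, 525 and 643 CPM in HS cows. Every PF and HS cow lay above every TN cow, TN replicate 1 far below the rest, and HS and PF cows overlapped. HS vs. TN gave 0.88 ± 0.43 (edgeR adjusted p = 0.536), PF vs. TN 0.85 ± 0.42 (edgeR adjusted p = 0.709) and HS vs. PF 0.037 ± 0.29. The first 2 without TN replicate 1 were 0.54 and 0.50.

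*F10* (factor X) had 370.2, 885 and 969 CPM in TN, 983, 1317 and 1422 CPM in PF and 655, 1069.8 and 920.3 CPM in HS cows. All PF cows were above all TN cows, the lowest PF cow only just, and HS cows overlapped both groups. Its log2 fold change was 0.23 ± 0.43 in HS vs. TN, 0.74 ± 0.41 in PF vs. TN and -0.50 ± 0.31 in HS vs. PF. The first 2 were, with TN replicate 1 left out, -0.077 and 0.43. *F2* (prothrombin) had 1422, 2008 and 2249 CPM in TN, 2267, 2191 and 3078 CPM in PF and 1237, 2449 and 2120.1 CPM in HS cows. *F7* (factor VII), which starts the cascade with tissue factor, had 135, 174 and 171 CPM, 146, 235 and 236 CPM and 131, 223 and 156 CPM in the same order. Groups overlapped for both genes in all 3 comparisons. HS vs. TN was 0.0084 ± 0.44 for *F2* and 0.061 ± 0.29 for *F7*, PF vs. TN 0.40 ± 0.37 and 0.35 ± 0.31, and HS vs. PF -0.38 ± 0.34 and -0.28 ± 0.30. Without TN replicate 1, HS vs. TN was -0.14 for *F2* and -0.027 for *F7*, and PF vs. TN 0.24 and 0.26.

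In the contact system, which starts coagulation on charged surfaces, *F12* (factor XII) had 62.5, 125 and 131 CPM in TN, 142, 171 and 184 CPM in PF and 138, 135 and 273 CPM in HS cows. Every PF and HS cow lay above the TN cows, with HS replicates 1 and 2 close to the highest TN cow. HS vs. TN gave 0.76 ± 0.38 (edgeR adjusted p = 0.542), PF vs. TN 0.64 ± 0.33 and HS vs. PF 0.13 ± 0.31. Without TN replicate 1, HS vs. TN was 0.51 and PF vs. TN 0.38. *F12* overlaps *PFN3* in the annotation, so some of its reads may be shared. *KLKB1*, plasma prekallikrein, was the 1 member with a fold change over 1.5 upward in HS vs. PF (9.26% of all genes), with 86.4, 69.5 and 87.7 CPM in PF and 79.6, 155 and 139 CPM in HS cows. The groups overlapped, and the log2 fold change was 0.61 ± 0.28 (edgeR adjusted p = 0.948). *F11* (factor XI), its neighbour in the annotation and close paralog, was at 0.35 ± 0.29 in the same comparison, and at -0.44 ± 0.30 in PF vs. TN.

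The cofactors and tissue factor held no gene under the unadjusted threshold. *F5* (factor V), made in hepatocytes, ranged from 129 to 381 CPM with log2 fold changes of 0.53 ± 0.36, 0.35 ± 0.31 and 0.19 ± 0.31 in HS vs. TN, PF vs. TN and HS vs. PF, PF vs. TN being 0.17 without TN replicate 1. *F8* (factor VIII), of endothelial origin, ranged from 7.78 to 23.8 CPM and was at 0.50 ± 0.32 in HS vs. PF. *F3* (tissue factor) ranged from 1.08 to 5.35 CPM, and its standard errors exceeded its fold changes. Hepatocyte genes of plasma anticoagulants and their regulators included *SERPINC1* (antithrombin), *SERPIND1* (heparin cofactor II) and *PROC*, *PROS1* and *PROZ* (proteins C, S and Z). *SERPINA10* (the protein Z-dependent inhibitor) and *SERPINA5* (the protein C inhibitor) were the others. Together these genes gave log2 fold changes of -0.046 to 0.77 in HS vs. TN. They ran from 0.25 to 0.84 in PF vs. TN and from -0.44 to 0.14 in HS vs. PF. *SERPINA5* had the highest of these in PF vs. TN, with 236, 755 and 615 CPM in TN and 982, 1089.5 and 809.8 CPM in PF cows, the groups not overlapping. *PROS1* was highest in HS vs. TN, at 0.77 ± 0.44. With TN replicate 1 left out *SERPINA5* was at 0.50 and *PROS1* at 0.42 in these comparisons, and the 7 genes ran from -0.17 to 0.42 in HS vs. TN and from 0.15 to 0.50 in PF vs. TN. *TFPI*, the tissue factor pathway inhibitor, had 0 to 53 reads a library and was removed by the filter on low counts in HS vs. TN. At this depth no difference was detectable for it.

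A list of 28 further genes of the pathway (vitamin K cycle, transport and carriers of factors V and VIII, thrombin receptors, regulators of plasminogen activation, other inhibitors) held 0 DEGs by edgeR in any comparison. Unadjusted p under 0.05 by edgeR was reached by 6 of 27 in HS vs. TN (9.36% of all genes), 4 of 27 in HS vs. PF (5.32%) and 0 of 26 in PF vs. TN (6.88%). DESeq2 made 3, 0 and 0 of them DEGs (1.75%, 0.771% and 0.555% of all genes). *A2M*, the broad protease inhibitor alpha-2-macroglobulin, had 28.7, 125 and 99.7 CPM in TN, 64.0, 189 and 70.8 CPM in PF and 375, 853 and 379 CPM in HS cows. All HS cows lay above all other cows, with log2 fold changes of 2.65 ± 0.57 in HS vs. TN (edgeR adjusted p = 0.252, called by DESeq2) and 2.31 ± 0.49 in HS vs. PF (edgeR adjusted p = 0.287, not called by DESeq2). DESeq2 also called *MCFD2*, a carrier of factors V and VIII out of the endoplasmic reticulum, and *ITIH4*, an acute phase protein cut by plasma kallikrein, both higher in HS than TN cows.

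*MCFD2* was at 1.12 ± 0.36 in HS vs. TN and *ITIH4* at 1.80 ± 0.68, the latter with 9563 CPM in HS replicate 2. At the unadjusted threshold by edgeR, *VKORC1L1*, a vitamin K epoxide reductase, was higher in HS than TN cows (0.83 ± 0.33). *F2R*, a thrombin receptor, was lower in HS than TN (-0.68 ± 0.28) and PF cows (-0.81 ± 0.29) at the same threshold. Neither gene was a DEG by edgeR or DESeq2. Platelet markers had summed levels of 21.9 to 39.5 CPM in TN, 22.0 to 30.3 CPM in PF and 20.0 to 32.4 CPM in HS cows. Red cell markers summed to 3.41 to 22.4, 0 to 2.30 and 0.337 to 1.34 CPM, neutrophil markers to 18.6 to 32.3, 34.8 to 40.4 and 46.1 to 49.3 CPM, stellate cell markers to 275 to 497, 226 to 403 and 202 to 481 CPM, and cholangiocyte markers to 28.3 to 84.7, 41.2 to 90.6 and 19.1 to 102 CPM in TN, PF and HS. Neutrophil sums did not overlap between the 3 groups, and no share of all genes was taken for a sum. Of the 4 tested neutrophil markers, 4 had a log2 fold change above 0 in HS vs. TN. In HS vs. PF 3 were above and 1 below 0, and likewise in PF vs. TN. The platelet genes *PPBP* and *GP9* reached at most 0.615 and 0.224 CPM, and the red cell gene *SLC4A1* was at 0 in every cow. Of 4 tested platelet markers, 3 had a log2 fold change above 0 in HS vs. TN, while *ITGA2B* was lower in HS cows at the unadjusted threshold by edgeR. Only *HBB* of the 5 red cell markers was tested. It was lower in HS and in PF than in TN cows. *MARCO* and *S100A9* were higher in HS than TN, and *CXCR2* and *S100A8* higher in HS than PF cows at that threshold. *RGS5*, a pericyte gene, was higher in PF than TN cows at that threshold, but 5 of 7 stellate cell markers had a log2 fold change below 0 there. For cholangiocyte markers, 0 of 5 passed it in any comparison. The part of these cells in the members' levels was not tested.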

How the data were processed

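The authors enriched polyadenylated mRNA from liver biopsies and sequenced it as paired reads. Per the labels and methods, reads were filtered with fastp 0.23.2, aligned to ARS-UCD1.2 with STAR 2.7.9a and counted per gene with featureCounts 2.0.3. The deposited values are raw read counts, with no normalization; the annotation release and the strand and multi-mapping settings are not given in the sources used here. All 9 columns were mapped by their labels and 0 were left out. Nothing beyond separate cows is stated of replicates, so p-values measure the spread between these cows.

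For every comparison edgeR 4.0.16 (R 4.3.3) was run over the whole table with the 6 libraries concerned, using TMM, filterByExpr, the quasi-likelihood F test and Benjamini-Hochberg adjusted p-values (FDR). Genes past FDR 0.1 and 1.5-fold were DEGs. The SE is the log2 fold change over the square root of F. The code was tested on simulated data. DESeq2 1.42.0, RLE size factors, other filters, all 9 libraries in 1 fit, a replicate block, removal of the 13 mitochondrial genes and leaving out each cow were the alternatives. The members, the further pathway genes and the marker lists were chosen with earlier results of these data known. Values for every cow are given for members that were DEGs by either tool, had an unadjusted edgeR p under 0.05, had groups apart in both comparisons of 1 group, or were fibrinogen chains or vitamin K-dependent procoagulants. Other members given by cow, in all groups (*PLG*, *THBD* and *FGL1*) or in 2 groups (*KNG1*, *KLKB1* and *SERPINA5*), were chosen after their values were seen. Symbols were looked up in RefSeq (assembly ARS-UCD2.0) for names, neighbours and overlaps alone. It has other genes overlapping *SERPIND1*, *F8*, *F12*, *KNG1*, *SERPINA5*, *TFPI* and *PLAT*, whose reads could be shared. Sequencing depth ranged from 16874444 to 22557047 counts per cow. The values of 1 further gene of the pathway are not reported here. Sequences and intake, milk and clinical records were not analysed here.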

Additional observations from a re-analysis of the deposited data

How the results depend on the processing

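Under all alternatives run with edgeR the count of member DEGs stayed at 0 in the 3 comparisons, also at an FDR of 0.05. DESeq2 called 1 member in HS vs. TN (*SERPINF2*) and 1 in HS vs. PF (*HRG*). The count of members with an unadjusted p under 0.05 moved more. In HS vs. TN it was 3 by edgeR, 11 by DESeq2 (9.82% of all genes), 5 with all 9 libraries in 1 fit (9.06%) and 1 to 4 with 1 cow left out, the lowest without HS replicate 2 (7.53%). In HS vs. PF it was 1 by edgeR, 2 by DESeq2 (5.70%), 2 with no filter on low counts (5.51%) and 1 to 2 with 1 cow left out, the highest without HS replicate 1 (5.48%). In PF vs. TN it was 1 by edgeR, 7 by DESeq2 (7.76%), 2 with no filter (7.46%) and 0 to 4 with 1 cow left out, being 0 without PF replicate 2 (4.43%) or 3 (9.50%), 2 without TN replicate 1 (4.35%), 4 without TN replicate 2 (9.96%) and 3 without TN replicate 3 (5.25%). Deviations from the group mean had r from -0.220 to 0.252 across genes in same-numbered cows, and from -0.322 to 0.321 in cows of unlike number. Deviations from the mean of 3 cows are tied to each other, so this cannot decide whether the numbers pair cows. A replicate block gave 0 member DEGs in each comparison and 10 members at the unadjusted threshold in HS vs. TN (10.3% of all genes), 1 in HS vs. PF (4.51%) and 1 in PF vs. TN (6.89%). Over all members, 62 of 1272 alternative log2 fold changes differed in sign from the reported value, in 31 of 98 comparisons of a gene. Of 468 alternative values of the 12 genes described by the rule (36 log2 fold changes), 448 kept direction and call, 2 became calls (both DESeq2) and 18 changed sign. All 18 were in comparisons where the main edgeR fit passed the gene at neither the unadjusted nor the DEG threshold. In HS vs. TN, *F2* went from 0.0084 to -0.0067 with at least 10 counts in every cow and to -0.029 with the replicate block. Leaving out 1 cow gave -0.19 to 0.25 for *F2*, -0.17 to 0.22 for *F7* and -0.077 to 0.47 for *F10*. In HS vs. PF it gave -0.11 to 0.21 for *F9*, -0.29 to 0.30 for *F12*, -0.36 to 0.46 for *FGA*, -0.32 to 0.46 for *FGB* and -0.40 to 0.42 for *FGG*, which was -0.033 with the block. The cause was not tested. With 3 cows a group and *TFPI*, *PROCR*, *F3* and *THBD* at few reads, small differences in these genes were not detectable.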

Other observations

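Within the vitamin K-dependent procoagulants, the ratio of *F10* to *F9* does not depend on library scaling. It was 2.91, 2.21 and 2.87 in TN, 1.56, 2.999 and 2.90 in PF and 1.47, 2.04 and 1.43 in HS cows. All HS cows lay below all TN cows, and PF replicate 1 lay within the HS range while the other PF cows lay above the HS cows. The pair was chosen after the values were seen and was given no test.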
